A study of Mus musculus with 6 samples.

Results

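Genes of the skeletal muscle contractile machinery and of its calcium cycle were measured in interscapular brown adipose tissue (iBAT) of control and *ob/ob* mice. The set held 46 genes of the 20630 named genes with values on the array, and its members were chosen by name: myosins, actin, tropomyosins, troponins, giant and Z-disk proteins, calcium release and reuptake proteins, and several muscle enzymes and regulators. Each gene was read from its brightest probe by the mean log2 signal over the 6 arrays. All 46 genes were named on the array and passed the filter on detection (above background on at least 3 of 6 arrays), and 42 of them were detected on all 6 arrays.

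RNA of 3 control and 3 *ob/ob* samples was profiled on 1 Agilent single-dye (Cy3) whole-genome array each, to compare the iBAT transcriptome of obese mice with that of controls. All samples came from male C57BL/6 mice, labeled as 16 weeks old. The *ob/ob* mice carry a mutated leptin gene in every cell and become obese from overeating, and the controls are described only as control. The labels do not say whether a sample is 1 mouse or several, so the p values measure only the spread between these samples.

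Skeletal muscle shortens when myosin heavy chains of the thick filament pull on actin of the thin filament. Calcium released from the sarcoplasmic reticulum binds troponin C and moves tropomyosin off the actin, and calcium pumps then take it back up. Fast and slow fibers use different genes for many of the same parts, so paired isoforms report on fiber type. Brown adipocytes and skeletal muscle fibers derive in part from common precursors in the embryo, and iBAT lies against the muscles of the back.

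Control 3 and *ob/ob* 3 stood apart from their groups over all probes. Spearman's rho of control 3 was 0.915 against *ob/ob* 1 and 0.944 against *ob/ob* 2, but 0.642 against control 1 and 0.730 against control 2. In turn, rho of *ob/ob* 3 was 0.858 against control 1, 0.573 against *ob/ob* 1 and 0.488 against *ob/ob* 2. The arrays had 83.5% to 89.9% of probes well above background. Whether control 3 and *ob/ob* 3 were exchanged cannot be settled from the labels, and this bears on every difference between the groups below. Some genes, picked after their values were seen, ran as labeled in both samples, but genes picked in this way cannot settle whether samples were exchanged. Over all genes tested, 7.95% had groups that did not overlap. *Zic1*, a transcription factor of the iBAT lineage, read 9.66, 10.43 and 9.08 in controls and 7.97, 7.90 and 7.06 in *ob/ob*, in the order of replicates 1, 2 and 3, which holds for all values below. The lipid elongase *Elovl3* read 9.20, 9.35 and 5.48 in controls and was not well above background in any *ob/ob* sample. Both genes belong to a list of 14 brown adipocyte markers. In that list, *ob/ob* 3 exceeded both other *ob/ob* samples for 11 genes, and control 3 lay below both other controls for 12. Groups were kept as labeled, and results are given with all 6 arrays and, where they rest on control 3 or *ob/ob* 3, also without it. Leptin itself (*Lep*), whose ob allele leaves a transcript and so does not check the labels, read 5.74, 4.57 and 5.30 log2 units in controls and 6.68, 5.83 and 9.33 in *ob/ob*, where the groups did not overlap either. *Ucp1*, the uncoupling protein that defines brown fat, read 13.05, 11.72 and 9.48 in controls and 8.93, 9.12 and 10.03 in *ob/ob*, and the groups overlapped.

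The muscle genes varied more between arrays than the array as a whole did, also within the groups. The median log2 signal over the 46 genes was 8.5, 9.09 and 7.62 in controls and 6.37, 6.57 and 9.43 in *ob/ob*. The muscle genes were thus lowest in *ob/ob* 1 and *ob/ob* 2 and highest in *ob/ob* 3, with control 3 between. The median within-group range of a gene was 1.93 log2 units in controls and 3.23 in *ob/ob*, compared with 1.0 and 1.44 over the 19011 genes tested. For 41 of the 46 genes, the *ob/ob* samples spread wider than the controls. Because these are bulk tissue samples, fewer cells of a type and less RNA per cell cannot be told apart.

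**Figure D1:**
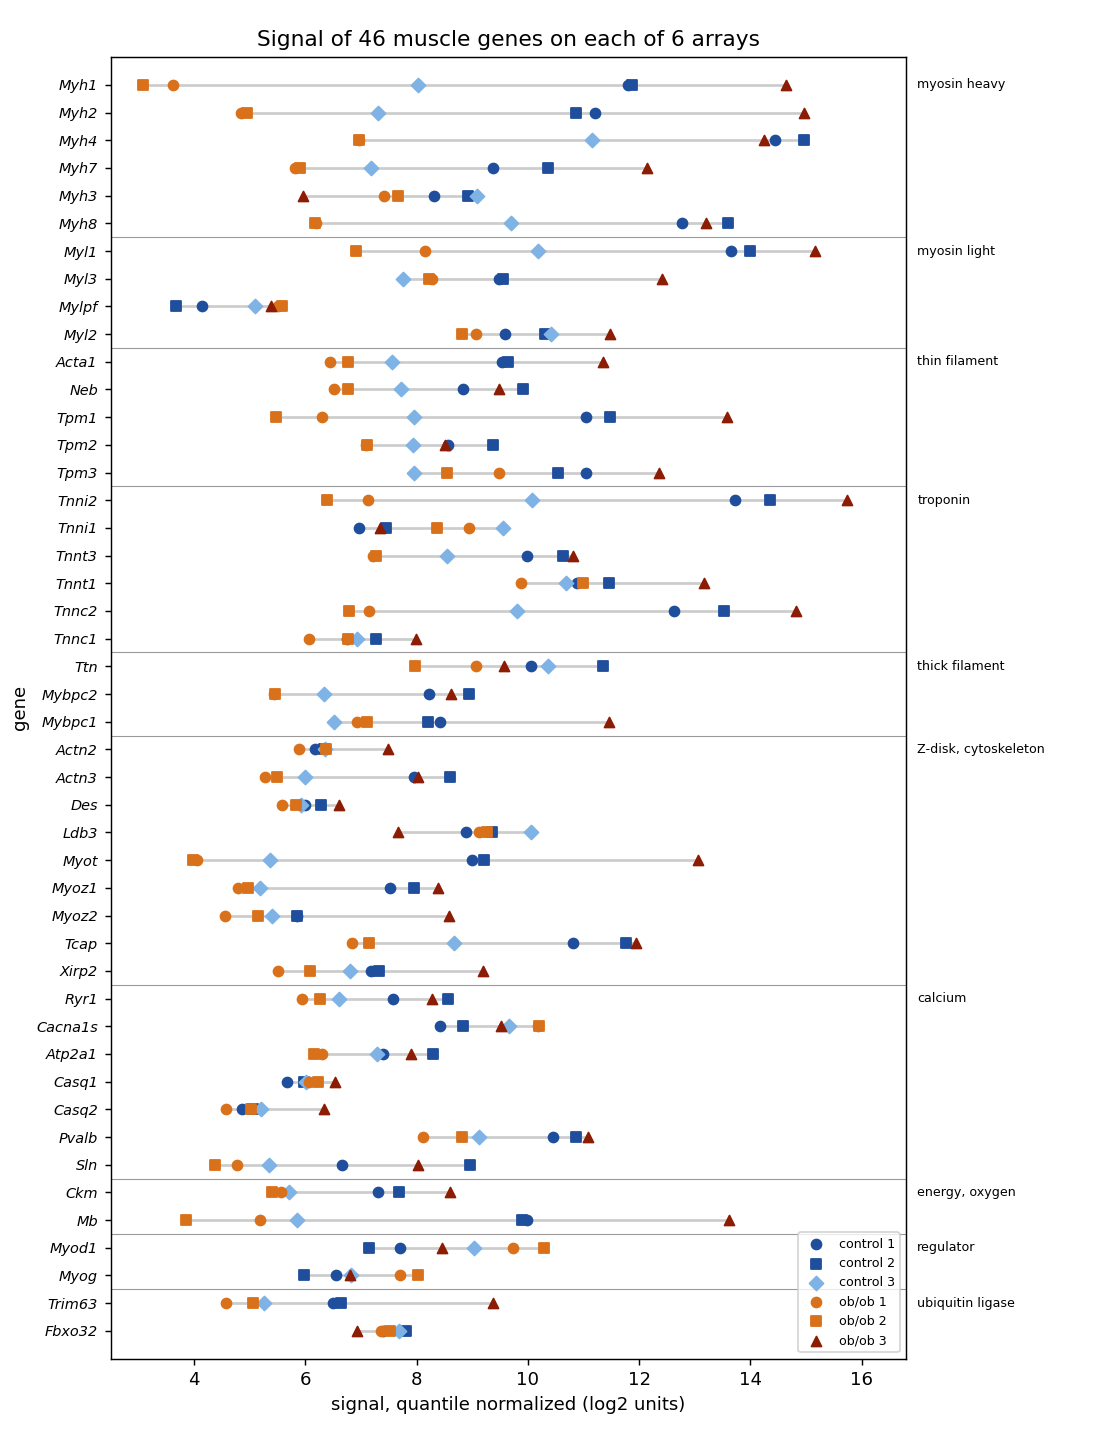
Quantile-normalized log2 signal (x axis) of each of the 46 genes (y axis, grouped by role) on each of the 6 arrays. Points are single arrays and the gray line joins the lowest to the highest. For most genes ob/ob 3 lies to the right of ob/ob 1 and ob/ob 2, as for Myh1 at 14.64 against 3.62 and 3.08, whereas Myod1 and Myog run the other way.

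Counted over genes, *ob/ob* 3 exceeded both other *ob/ob* samples for 38 of 46 muscle genes (82.6%), compared with 41.5% of all genes tested. Control 3 lay below both other controls for 32 of 46 (69.6%), compared with 38.8%. These counts describe the arrays and were not tested. The 8 genes for which *ob/ob* 3 was not the highest of its group were *Myh3*, *Mylpf*, *Tnni1*, *Ldb3*, *Cacna1s*, *Myod1*, *Myog* and *Fbxo32*.

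Between the groups, no muscle gene passed the test. In the limma fit over 35448 probes, 0 of 46 genes had an adjusted p under 0.05, and 0 probes did so in all (0% of 35448, lowest adjusted p 0.154). A looser line asked for an unadjusted p under 0.05 together with a change of 2-fold or more. Past it were 3 of 46 muscle genes (6.52%), compared with 3.18% of all genes tested. These were *Myh3* and *Ttn*, lower in *ob/ob*, and *Mylpf*, higher in *ob/ob*. The methods' t-test also called 0 genes after adjustment, and 3 muscle genes and 1.8% of all genes by the looser line. In all, 32 of 46 muscle genes (69.6%) had a lower mean in *ob/ob*, compared with 57.1% of all genes, and their median log2 fold change was -0.78, compared with -0.09 over all genes.

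Of the arrays left out one at a time, *ob/ob* 3 moved the count past the looser line the most. Without it, 24 of 46 muscle genes (52.2%) were lower in *ob/ob* by the looser line, compared with 3.68% of all genes, and 4 were higher, compared with 4.47%. Still, 0 muscle genes had an adjusted p under 0.05, and their lowest adjusted p was 0.50 in limma. The median log2 fold change moved from -0.78 to -1.46. Without control 3, in contrast, 5 muscle genes (10.9%) were past the looser line, compared with 9.34% of all genes, and without control 2, 0 were, compared with 0.826%. Without both control 3 and *ob/ob* 3, 38 of 46 muscle genes (82.6%) had an adjusted p under 0.05 in limma, but so did 49.5% of all genes tested. Control 1, control 3 and *ob/ob* 1 carry the same scan time. Within that scan *ob/ob* is 1 sample, which allows no test of the groups, and the median log2 fold change of the muscle genes there was -1.19. With the replicate number as a block, 0 muscle genes and 1.07% of all genes were past the looser line.

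**Figure D2:**
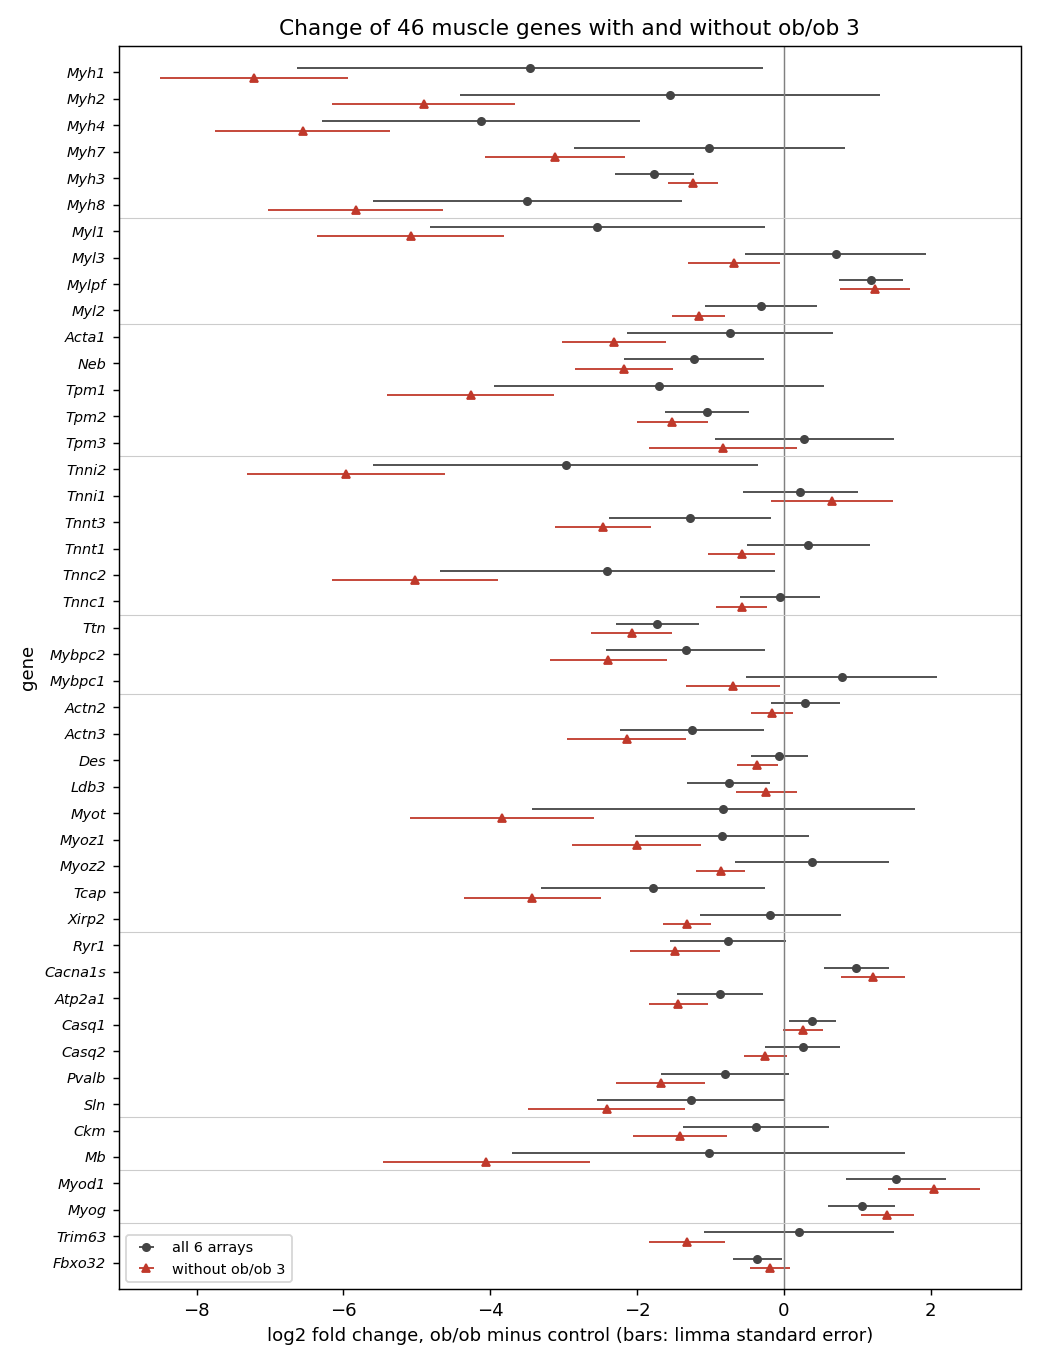
Log2 fold change of each of the 46 genes, ob/ob minus control (x axis), from the fit of all 6 arrays (circles) and from the fit without ob/ob 3 (triangles), with limma standard errors as bars. Without ob/ob 3 the myosin heavy chains other than Myh1 lie between -6.55 and -1.24. The triangle of Myh1 is only a limit (controls at least 101-fold higher), since its probe was not well above background in ob/ob 1 and ob/ob 2. Myod1, Myog, Cacna1s, Mylpf, Tnni1 and Casq1 remain on the positive side.

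The myosin heavy chains, the motors of the sarcomere, had lower means in *ob/ob* in 6 of 6 genes, with a median log2 fold change of -2.61. *Myh4*, the heavy chain of the fastest fibers, read 14.44, 14.96 and 11.16 in controls and 6.97, 6.96 and 14.25 in *ob/ob*. Samples *ob/ob* 1 and *ob/ob* 2 lay below all controls, whereas *ob/ob* 3 lay with controls 1 and 2, and the fold change of -4.13 (SE 2.17) had an unadjusted limma p of 0.103. *Myh1*, another fast chain, read 11.80, 11.88 and 8.02 in controls and 3.62, 3.08 and 14.64 in *ob/ob*. Its probe was not well above background in *ob/ob* 1 and *ob/ob* 2, so *ob/ob* 3 exceeded *ob/ob* 2 by at least 1403-fold, taking the lowest signal well above background on *ob/ob* 2 (4.19 log2 units) in place of the probe's own.

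*Myh2*, the chain of fast oxidative fibers, read 11.21, 10.87 and 7.31 in controls and 4.84, 4.95 and 14.97 in *ob/ob*. *Myh7*, the heavy chain of slow fibers and of the heart, read 9.37, 10.36 and 7.19 in controls and 5.81, 5.91 and 12.15 in *ob/ob*. Both were highest in *ob/ob* 3 and lowest in the other *ob/ob* samples, and the group means differed by -1.54 (SE 2.86) and -1.01 (SE 1.85) on the log2 scale.

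Both heavy chains of developing muscle were also read. *Myh8*, the perinatal chain, read 12.78, 13.59 and 9.69 in controls and 6.20, 6.18 and 13.21 in *ob/ob*, again lowest in *ob/ob* 1 and *ob/ob* 2 with control 3 between. *Myh3*, the embryonic chain, differed in pattern. It read 8.32, 8.93 and 9.08 in controls and 7.41, 7.66 and 5.96 in *ob/ob*, so that the groups did not overlap, with a fold change of -1.76 (SE 0.54, unadjusted limma p of 0.0161, adjusted p of 1.0). A second, dimmer *Myh3* probe for the same transcript read 3.19, 6.09 and 1.73 in controls and 1.71, 1.86 and 7.28 in *ob/ob*, failed the filter on detection and did not show that separation.

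Because the fast chain *Myh4* and the slow chain *Myh7* form one of the isoform pairs compared below, the DNA just upstream of them is shown, together with that of *Myh1* and of the fast light chain gene *Myl1*. Each is the 250 bases before the RefSeq start on assembly GRCm38.p6, 5′ to 3′ on the strand of the gene. Capitals mark the muscle E-box CAGCTG, a loose MEF2 motif and the TATA box TATAAA, searched on both strands. The loose MEF2 motif is CTA and TAG with any 4 bases between, whereas the MEF2 site itself takes only A or T there. *Myh4* and *Myh1* are at chr11:67237562-67237811 and chr11:67199852-67200101 on the plus strand, and *Myh7* and *Myl1* at chr14:54994550-54994799 and chr1:66945057-66945306 on the minus strand.
Myh4: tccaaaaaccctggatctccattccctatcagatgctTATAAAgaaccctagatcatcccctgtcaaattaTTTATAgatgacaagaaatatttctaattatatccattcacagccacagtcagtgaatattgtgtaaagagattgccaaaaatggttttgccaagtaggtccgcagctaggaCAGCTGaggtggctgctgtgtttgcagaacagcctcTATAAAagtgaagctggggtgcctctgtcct
Myh1: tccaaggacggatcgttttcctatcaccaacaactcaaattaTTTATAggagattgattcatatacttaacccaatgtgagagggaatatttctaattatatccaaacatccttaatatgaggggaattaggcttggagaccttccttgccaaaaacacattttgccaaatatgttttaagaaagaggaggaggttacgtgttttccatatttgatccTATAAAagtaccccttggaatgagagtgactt
Myh7: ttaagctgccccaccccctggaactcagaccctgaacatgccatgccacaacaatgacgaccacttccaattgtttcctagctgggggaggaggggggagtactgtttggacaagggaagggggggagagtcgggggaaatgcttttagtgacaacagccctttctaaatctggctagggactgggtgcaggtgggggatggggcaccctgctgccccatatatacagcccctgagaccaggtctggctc
Myl1: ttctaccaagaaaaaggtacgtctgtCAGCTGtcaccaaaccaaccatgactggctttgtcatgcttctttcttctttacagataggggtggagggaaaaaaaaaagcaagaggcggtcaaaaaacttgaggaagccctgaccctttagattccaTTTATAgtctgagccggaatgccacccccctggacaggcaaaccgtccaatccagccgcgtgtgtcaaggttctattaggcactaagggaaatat
The *Myh4* window held 1 CAGCTG and 3 matches to TATAAA, the *Myh1* window 2 matches to TATAAA, the *Myl1* window 1 CAGCTG and 1 TATAAA, and the *Myh7* window none of the 3 motifs. Over the 44 windows found for 36 of the 46 genes, 43.2% held CAGCTG, compared with 13.0% of all 32851 windows. The loose MEF2 motif stood in 9.1% of the muscle windows, compared with 3.2%, and TATAAA in 20.5%, compared with 12.4%. Of the windows of fast genes, 5 of 11 held CAGCTG, and of those of slow genes 5 of 12. These are counts of windows, not of genes. Overlapping windows of *Tnni1*, a slow gene, and of *Mb* share a CAGCTG, which is counted in each window. *Myh3*, *Myh2*, *Myh1*, *Myh4* and *Myh8* lie next to each other on chromosome 11 with 0 protein-coding genes between neighbors. These matches describe letters only.

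The myosin light chains brace the lever arm of the heavy chain and tune its motion. *Myl1*, the fast essential chain, read 13.66, 14.00 and 10.18 in controls and 8.15, 6.91 and 15.16 in *ob/ob*, and the groups overlapped through *ob/ob* 3. Its slow counterpart *Myl3* read 9.48, 9.56 and 7.76 in controls and 8.28, 8.22 and 12.42 in *ob/ob*, with *ob/ob* 3 alone above the controls. The slow regulatory chain *Myl2* read 9.59, 10.31 and 10.41 in controls and 9.07, 8.82 and 11.48 in *ob/ob*.

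*Mylpf*, the fast regulatory chain, was, with *Casq1*, 1 of 2 fast genes of 14 whose mean was higher in *ob/ob*. It read 4.14, 3.68 and 5.10 in controls and 5.51, 5.59 and 5.39 in *ob/ob*, and every *ob/ob* sample lay above every control. The fold change was 1.19 (SE 0.44, unadjusted limma p of 0.0341, adjusted p of 1.0). The gene had 1 probe, which was dim and not well above background in control 2.

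The thin filament genes followed the same arrays. *Tpm1*, a tropomyosin that covers the myosin sites on actin, read 11.04, 11.48 and 7.95 in controls and 6.31, 5.48 and 13.58 in *ob/ob*. *Acta1*, the actin of skeletal muscle, read 9.54, 9.64 and 7.56 in controls and 6.44, 6.76 and 11.35 in *ob/ob*. In both genes *ob/ob* 3 was the highest of all samples and *ob/ob* 1 and *ob/ob* 2 the lowest. *Neb* (nebulin, which runs along the thin filament) and *Tpm2* had mean differences of -1.22 (SE 0.95) and -1.05 (SE 0.58), and *Tpm3*, which nonmuscle cells also express, one of 0.28 (SE 1.22). Probes of *Tpm1* for different transcripts disagreed: a probe for another transcript read 8.63, 8.85 and 9.91 in controls and 9.40, 9.97 and 7.87 in *ob/ob*, nearly the reverse order.

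The troponins pass the calcium signal to tropomyosin. *Tnni2*, the fast inhibitory subunit, read 13.72, 14.35 and 10.08 in controls and 7.12, 6.39 and 15.73 in *ob/ob*. *Tnnc2*, the fast calcium-binding subunit, read 12.63, 13.53 and 9.81 in controls and 7.14, 6.79 and 14.83 in *ob/ob*. *Tnnt3*, the fast subunit that ties the complex to tropomyosin, read 9.98, 10.63 and 8.54 in controls and 7.22, 7.28 and 10.82 in *ob/ob*. All the fast troponins were highest in *ob/ob* 3 and lowest in *ob/ob* 1 and *ob/ob* 2.

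The slow troponins varied less. *Tnnt1* read 10.88, 11.46 and 10.69 in controls and 9.87, 10.99 and 13.16 in *ob/ob*. *Tnnc1*, also the troponin C of the heart, read 6.75, 7.28 and 6.93 in controls and 6.07, 6.76 and 7.99 in *ob/ob*. *Tnni1* read 6.97, 7.46 and 9.56 in controls and 8.94, 8.37 and 7.35 in *ob/ob*, with control 3 highest, unlike the other troponins.

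Among thick filament proteins, titin (*Ttn*), the giant spring that spans the sarcomere from Z-disk to M-line, read 10.06, 11.36 and 10.36 in controls and 9.07, 7.97 and 9.58 in *ob/ob*. Every *ob/ob* sample lay below every control, with a fold change of -1.72 (SE 0.57, unadjusted limma p of 0.0213, adjusted p of 1.0). Another *Ttn* probe for the same transcript read 10.34, 11.27 and 6.89 in controls and 4.27, 3.99 and 12.86 in *ob/ob*, where the groups overlapped (fold change -2.46, SE 2.56). The groups also overlapped on the remaining *Ttn* probes, with fold changes of -0.12 (SE 0.33) and -1.26 (SE 1.67). The separation thus held for the brightest probe only. Of the myosin-binding proteins, fast *Mybpc2* read 8.22, 8.94 and 6.34 in controls and 5.43, 5.45 and 8.62 in *ob/ob*. Slow *Mybpc1* read 8.42, 8.20 and 6.52 in controls and 6.93, 7.11 and 11.46 in *ob/ob*. The groups overlapped in both, with fold changes of -1.33 (SE 1.08) and 0.79 (SE 1.30). That of *Mybpc1* was -0.69 without *ob/ob* 3, and 0.05 (SE 1.04) on its other probe with all arrays.

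Z-disk genes, whose products anchor the thin filaments, had lower means in *ob/ob* in 7 of 9 members, between -1.78 and 0.39 on the log2 scale. *Tcap*, which caps titin at the Z-disk, read 10.81, 11.77 and 8.68 in controls and 6.84, 7.15 and 11.94 in *ob/ob*. *Myot* (myotilin) read 9.0, 9.22 and 5.37 in controls and 4.06, 3.98 and 13.06 in *ob/ob*, so *ob/ob* 3 exceeded *ob/ob* 1 by 511-fold and, with its probe not well above background there, exceeded *ob/ob* 2 by at least 469-fold. The calcineurin-binding *Myoz1* of fast fibers read 7.52, 7.95 and 5.18 in controls and 4.79, 4.98 and 8.38 in *ob/ob*, and *Myoz2* of slow fibers read 5.86, 5.86 and 5.40 in controls and 4.55, 5.15 and 8.59 in *ob/ob*.

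*Actn3*, the fast-fiber actinin, read 7.96, 8.61 and 5.99 in controls and 5.28, 5.49 and 8.03 in *ob/ob*. *Xirp2*, an actin-binding protein, had a mean difference of -0.18 (SE 0.96). *Actn2* and *Des* (desmin, the muscle intermediate filament) differed little in mean, by 0.29 (SE 0.47) and -0.06 (SE 0.39). *Ldb3*, a Z-disk adaptor, read 8.89, 9.36 and 10.06 in controls and 9.13, 9.27 and 7.66 in *ob/ob* on its brightest probe. A probe for another *Ldb3* transcript read 7.76, 8.51 and 5.32 in controls and 5.28, 5.26 and 9.82 in *ob/ob*, the order of most muscle genes.

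The calcium genes varied less than the motors. *Atp2a1*, the fast-fiber calcium pump, read 7.40, 8.29 and 7.29 in controls and 6.30, 6.16 and 7.91 in *ob/ob*, with a fold change of -0.87 (SE 0.59). *Ryr1*, the calcium release channel, had one of -0.76 (SE 0.79) and *Sln* (sarcolipin, which lowers the pump's efficiency) one of -1.27 (SE 1.27). *Pvalb* (parvalbumin, the calcium buffer of fast fibers) read 10.46, 10.86 and 9.12 in controls and 8.12, 8.82 and 11.08 in *ob/ob* on the chosen probe. On its other probe it read 12.39, 13.37 and 9.23 in controls and 4.49, 4.12 and 13.68 in *ob/ob*, so the same transcript gave fold changes of -0.81 and -4.23.

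*Cacna1s*, the voltage sensor that opens *Ryr1*, ran the other way. It read 8.43, 8.83 and 9.67 in controls and 10.18, 10.21 and 9.51 in *ob/ob*, with a fold change of 0.99 (SE 0.45, unadjusted limma p of 0.0666), whereas its other probe gave -0.27 (SE 0.40). *Casq1*, the calsequestrin that stores calcium in fast fibers, read 5.68, 5.98 and 6.01 in controls and 6.07, 6.23 and 6.53 in *ob/ob*. Those groups did not overlap, with a small fold change of 0.39 (SE 0.32). *Casq2*, the calsequestrin of slow fibers and the heart, read 4.87, 5.07 and 5.20 in controls and 4.58, 5.02 and 6.33 in *ob/ob*. Over all members, 4 of 46 genes (8.70%) had groups that did not overlap, namely *Myh3*, *Ttn*, *Mylpf* and *Casq1*, compared with 7.95% of all genes tested, so the share was near the background.

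*Mb* (myoglobin, the oxygen store of oxidative fibers) read 9.98, 9.90 and 5.85 in controls and 5.18, 3.86 and 13.62 in *ob/ob*. *Ckm*, the muscle creatine kinase, read 7.31, 7.68 and 5.71 in controls and 5.56, 5.41 and 8.60 in *ob/ob*. Both again put *ob/ob* 3 on top and *ob/ob* 1 and *ob/ob* 2 at the bottom, and the probe of *Mb* was not well above background in *ob/ob* 2. The muscle-wasting ubiquitin ligases parted: *Trim63* read 6.50, 6.65 and 5.25 in controls and 4.57, 5.07 and 9.37 in *ob/ob*, whereas *Fbxo32* stayed between 6.93 and 7.82 on all arrays.

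Both myogenic transcription factors among the members had higher means in *ob/ob*, although neither was past the looser line. *Myod1*, which commits cells to the muscle fate, read 7.70, 7.15 and 9.04 in controls and 9.73, 10.29 and 8.46 in *ob/ob*. *Myog* (myogenin), which drives their differentiation, read 6.55, 5.97 and 6.83 in controls and 7.70, 8.02 and 6.81 in *ob/ob*. Both were highest in *ob/ob* 1 and *ob/ob* 2, and *ob/ob* 3 lay within the range of the controls. Their fold changes were 1.53 (SE 0.68, unadjusted limma p of 0.0638) and 1.06 (SE 0.45, unadjusted limma p of 0.0556), and 2.04 and 1.41 without *ob/ob* 3.

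Fast and slow fiber genes were then set side by side. Of the 14 fast genes, 12 had a lower mean in *ob/ob*, with a median log2 fold change of -1.30, compared with 3 of 9 slow genes and a median of 0.26. The median signal of the fast genes was 10.22, 10.74 and 7.67 in controls and 6.18, 6.20 and 10.95 in *ob/ob*. That of the slow genes was 8.42, 8.20 and 7.19 in controls and 6.93, 7.11 and 11.46 in *ob/ob*. In both sets *ob/ob* 3 was the highest sample, and the slow genes exceeded their control level there by more than the fast genes did. Without *ob/ob* 3 the medians were -2.43 for fast and -0.68 for slow genes, so the slow median changed sign with that sample.

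The difference between the fast and the slow isoform of 1 protein was taken within each array. This leaves out a shift only where both probes show it at the same size in log2 units. Whether dim probes show a shared shift in full was not tested. For the heavy chains, *Myh4* minus *Myh7* was 5.07, 4.60 and 3.97 log2 units in controls and 1.16, 1.05 and 2.09 in *ob/ob*. Every *ob/ob* sample, *ob/ob* 3 included, lay below every control, and the mean difference changed by -3.11 (exact permutation test, two-sided, p of 0.10, adjusted p of 0.30 over 9 pairs). With 3 against 3 samples, 0.10 is the smallest p that this test can give. The separation depended on the choice of *Myh4* as the fast chain. In *ob/ob* 3, the fast chains *Myh1* and *Myh2* read 14.64 and 14.97, against 12.15 for *Myh7*. With either of them in place of *Myh4*, the groups overlap. The differences compare how 2 probes move and say nothing of which isoform is more abundant.

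On the brightest probes, groups did not overlap in 2 more pairs. Among single genes, 7.95% of all tested had groups that did not overlap. No such share was taken over other gene pairs, so the count of pairs has no background beside it. *Tnnt3* minus *Tnnt1* was -0.90, -0.83 and -2.15 in controls and -2.65, -3.72 and -2.34 in *ob/ob*, a change of -1.61 (exact permutation p of 0.10, adjusted p of 0.30). That separation depended on the *Tnnt3* probe. A probe for another *Tnnt3* transcript read lower in control 3 and higher in *ob/ob* 3 (11.06) than the brightest probe. With it in place of the brightest, *ob/ob* 3 lies above control 3 and the groups overlap. *Mybpc2* minus *Mybpc1* was -0.20, 0.74 and -0.18 in controls and -1.5, -1.66 and -2.84 in *ob/ob*, a change of -2.12 (exact permutation p of 0.10, adjusted p of 0.30). In that pair *ob/ob* 3 had the lowest value, although both genes were high in it.

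The other pairs overlapped between the groups. *Myl1* minus *Myl3* changed by -3.25 (exact permutation p of 0.2), *Tnni2* minus *Tnni1* by -3.20 (exact permutation p of 0.4), *Tnnc2* minus *Tnnc1* by -2.36 (exact permutation p of 0.4) and *Myoz1* minus *Myoz2* by -1.22 (exact permutation p of 0.4). *Casq1* minus *Casq2* changed by 0.13 (exact permutation p of 0.9) and *Mylpf* minus *Myl2* by 1.5 (exact permutation p of 0.3). The median over the 9 pairs was 1.66, 2.09 and 0.52 in controls and -0.13, -1.31 and 0.21 in *ob/ob*, and the median change was -2.12. No pair passed an adjusted p of 0.05, which this design cannot reach.

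**Figure D3:**
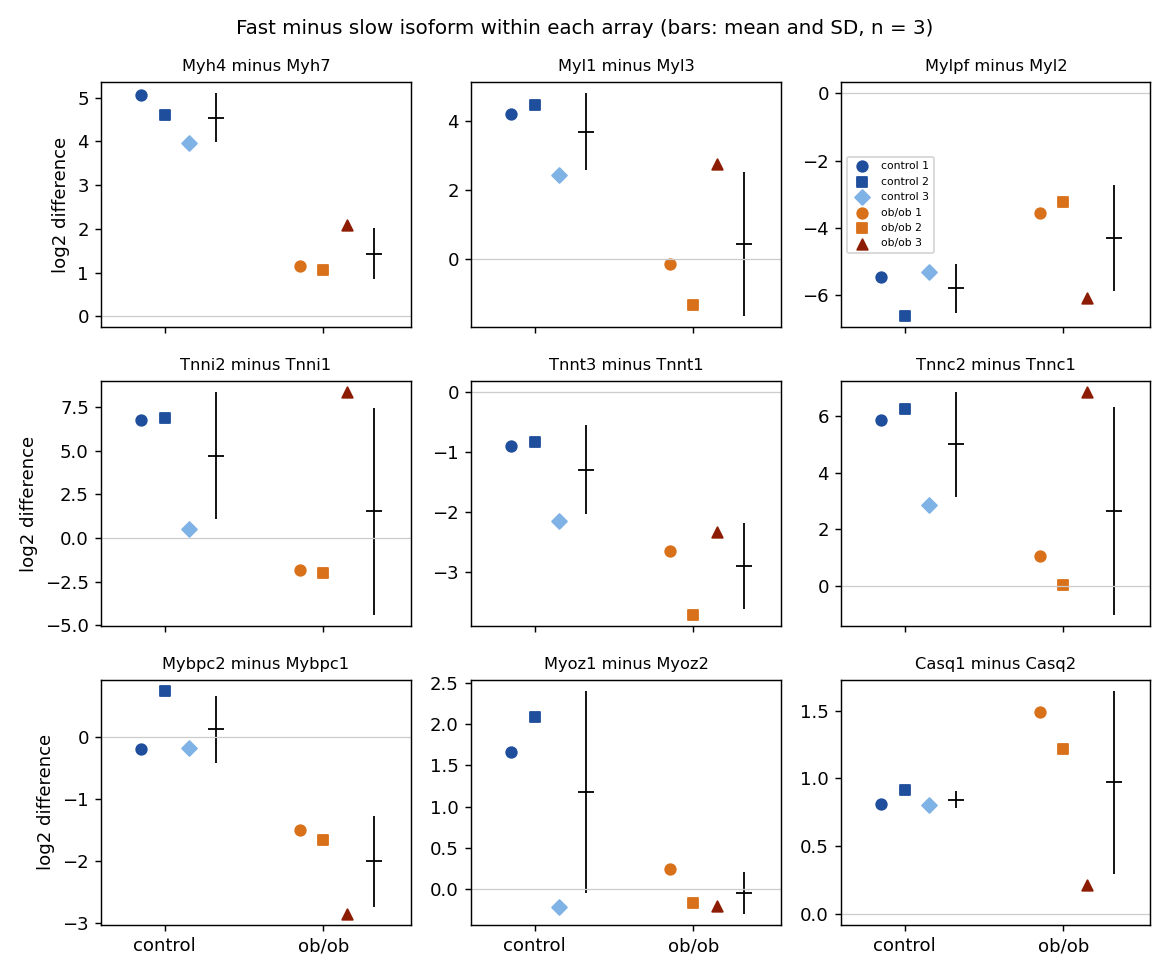
Fast minus slow isoform within each array for 9 pairs (y axis, log2 difference, with its own scale in each panel), for 3 control and 3 ob/ob arrays. Points are single arrays and black bars give the group mean and SD. On the brightest probes, the groups are apart for Myh4 minus Myh7, Tnnt3 minus Tnnt1 and Mybpc2 minus Mybpc1, and overlap for the other pairs.

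Several other gene lists moved with the same arrays. Of 28 other sarcomere genes tested, 16 had lower and 12 higher means in *ob/ob*, with a median log2 fold change of -0.11. Past the looser line there was 1, *Synpo2l*, a Z-disk protein, which was higher (fold change 2.08, SE 0.86). Of all genes tested, 57.1% had a lower mean and 3.18% were past the looser line, so these counts were near the background. Of 17 other calcium release and reuptake genes, 10 had lower and 7 higher means, and none was past the looser line. Of 13 muscle energy enzymes, 11 had lower and 2 higher means, and none was past it. The medians of these lists on each array were lowest in *ob/ob* 1 and *ob/ob* 2 for the first pair of lists, as for the members, but lowest in control 3 for the enzymes (6.95).

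The median of the myogenic regulators outside the members was lowest in controls 1 and 2 and in *ob/ob* 3. It was 6.41, 6.57 and 8.80 in controls and 8.42, 8.60 and 6.72 in *ob/ob*. Among 14 tested, 2 were past the looser line and higher in *ob/ob*, compared with 1.69% of all genes tested. These were *Mstn*, the growth inhibitor myostatin, by 2.19 (SE 0.75), and *Eya1*, a coactivator in early muscle formation, by 2.13 (SE 0.81). Not all of these regulators followed the median: *ob/ob* 3 exceeded both other *ob/ob* samples in 4 of 14, among them the myogenic factor *Myf6* (8.34 against 5.16 and 5.20). *Pax7*, which marks muscle stem cells, read 8.58, 8.81 and 9.58 in controls and 8.41, 8.94 and 6.23 in *ob/ob*. The 10 heart muscle markers had medians of 5.83, 5.70 and 6.42 in controls and 6.22, 6.01 and 5.82 in *ob/ob*. Sample *ob/ob* 3 exceeded both other *ob/ob* samples in 1 of the 10. The 8 neuromuscular junction genes tested had medians of 5.94, 6.11 and 6.95 in controls and 6.78, 6.69 and 6.15 in *ob/ob*. There, *ob/ob* 3 exceeded both others in 2 of the 8.

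Markers of other cell types differed between the same samples, and their part in the muscle result was not tested. The nonmuscle members of the same gene families (17 genes, such as *Actb*) had medians of 9.50, 9.38 and 7.77 in controls and 7.61, 7.80 and 9.82 in *ob/ob*, likewise high in controls 1 and 2 and in *ob/ob* 3, which exceeded both other *ob/ob* samples in 13 of the 17. The 7 endothelial markers had medians of 9.51, 8.83 and 6.19 in controls and 5.43, 5.75 and 8.68 in *ob/ob*, with *ob/ob* 3 above both others in 6 of the 7. The 10 smooth muscle markers were mixed: their medians were 7.68, 7.48 and 5.98 in controls and 6.07, 6.00 and 7.80 in *ob/ob*, but *ob/ob* 3 was above both others in 4 of the 10, and the actin *Acta2* read 10.11, 11.05 and 9.03 in *ob/ob*. The 14 brown adipocyte markers had medians of 9.86, 10.19 and 7.85 in controls and 7.51, 7.44 and 7.33 in *ob/ob*. Gene by gene, however, *ob/ob* 3 exceeded both other *ob/ob* samples in 11 of the 14, as for *Cidea* (12.38 against 9.89 and 9.79) and *Cpt1b* (9.48 against 4.78 and 4.45). Of the 14, 3 were past the looser line and lower in *ob/ob*, compared with 1.49% of all genes tested. These were *Zic1* by -2.08 (SE 0.48), *Ppargc1a* by -2.91 (SE 0.87), and *Elovl3*, which was at least 15.8-fold lower. Macrophage and white adipocyte markers had their highest medians in *ob/ob* 3, at 7.37 and 7.60, but were mixed gene by gene. Sample *ob/ob* 3 exceeded both other *ob/ob* samples in 6 of the 10 macrophage and 4 of the 9 white adipocyte markers. It did so in 41.5% of all genes tested. The white adipocyte marker *Retn* was past the looser line and lower in *ob/ob*, by -1.98 (SE 0.76).

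**Figure D4:**
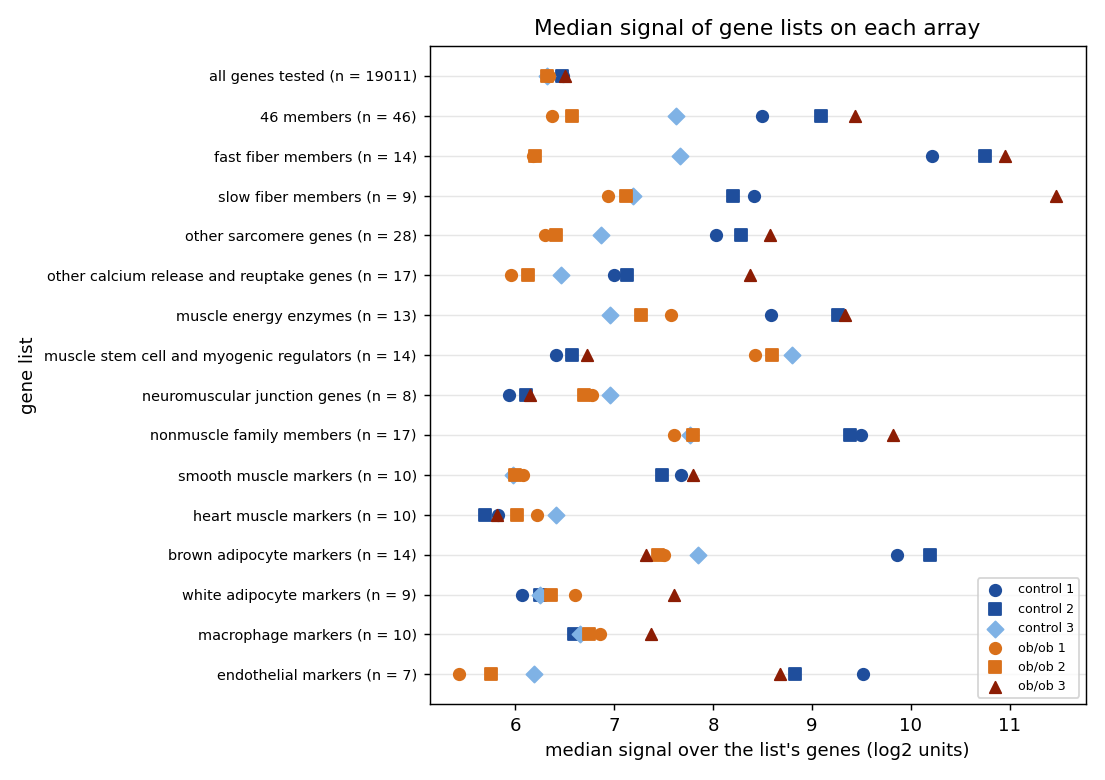
Median log2 signal (x axis) of each gene list (y axis, with the number of genes) on each of the 6 arrays. Medians of the members, other sarcomere, other calcium, muscle energy, nonmuscle family and endothelial lists are high in controls 1 and 2 and in ob/ob 3. Those of the myogenic regulators, neuromuscular junction genes and heart muscle markers are low there. The medians of the smooth muscle and brown adipocyte lists do not stand for all their genes: ob/ob 3 is the highest ob/ob sample for 4 of 10 and for 11 of 14.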

How the data were processed

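The authors scanned 6 single-dye Agilent arrays and deposited the output of Agilent Feature Extraction (version 11.0.1.1), in which each spot's intensity is background-corrected within its array. A second file that the authors deposited holds log2 values after quantile normalization in GeneSpring. Here the scanner values were used. Replicate spots were averaged as log2 values, 104 of 39429 probes were dropped because some array flagged all their spots as outliers, and arrays were quantile normalized. The contrast of *ob/ob* against control was fitted with R (version 4.3.3) and limma (version 3.58.1) to 35448 probes, those above background on 3 or more of the 6 arrays, and p values were adjusted by Benjamini-Hochberg across them. No spot was saturated. Where a probe was not well above background on the lower side, the fold is a lower bound against the higher of its own value and the lowest well-above-background signal of that array. Dim probes have less precise values, and the number of arrays limits the precision.

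Probes were named from RefSeq accessions (27234 of 28684 matched), and promoters were taken from RefSeq, both on GRCm38.p6. The array was read with 1 probe per gene. Fast minus slow differences within arrays were tested with exact permutation tests. The 46 members, the fiber classes, the isoform pairs and the other gene lists were chosen with earlier results of these data known. Values on every array are given for isoform pairs, for genes past an unadjusted p of 0.05 and 2-fold, and for genes whose groups do not overlap; the other members shown by array were chosen after their values were seen. Of other lists, the named genes are at most the 3 with the lowest unadjusted p under 0.05, and *Ucp1*; *Lep*, *Actb*, *Pax7*, *Myf6*, *Acta2*, *Cidea*, *Cpt1b* and those named for their role were added later. Control 1, control 3 and *ob/ob* 1 carry the same scan time in the files. The limma code was tested on simulated data. Alternatives were 75th percentile scaling, normexp background (offset 50), the authors' log2 table, other detection filters, the mean over probes, a replicate or scan block, the methods' t-test and leaving out arrays.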

Additional observations from a re-analysis of the deposited data

How the results depend on the processing

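Under the alternatives that kept all 6 arrays, no muscle gene had an adjusted p under 0.05, and the median change of the 46 genes stayed between -1.19 and -0.48. The scan block, which compares only control 1 and control 3 with *ob/ob* 1, put 10 genes past the looser line, but with 1 *ob/ob* sample and a spread from control 1 and control 3 alone this count is no test of the groups; the median fast minus slow change was -1.31. With the replicate block, 0 genes were past the looser line; the deviations of same-numbered samples correlated at -0.781, -0.658 and -0.850, and no sample correlated best with its own number, so the numbers are no pairing. Without control 3 and *ob/ob* 3 together, 16259 probes and 38 muscle genes had an adjusted p under 0.05 and 38 genes were past the looser line; 49.5% of all genes passed then too. Leaving out 1 array at a time, probes and muscle genes with an adjusted p under 0.05 stayed at 0, muscle genes past the looser line ran from 0 to 28, the median change from -1.46 to -0.0042, that of fast genes from -2.43 to -0.71, that of slow genes from -0.68 to 0.62, and the median fast minus slow change from -2.28 to -1.20. Signs turned for *Tnnc1* (0.13) and *Xirp2* (0.077) under 75th percentile scaling, and for *Tnnc1* (0.049), *Myot* (0.24) and *Xirp2* (0.11) under normexp. Under the scan block they turned for *Myl3* (-0.34), *Tpm3* (-0.014), *Tnnt1* (-0.91), *Mybpc1* (-0.54), *Actn2* (-0.38), *Myoz2* (-1.08), *Casq2* (-0.46) and *Trim63* (-1.31). Without control 3 and *ob/ob* 3 they turned for *Myl3* (-1.27), *Tpm3* (-1.78), *Tnnt1* (-0.74), *Mybpc1* (-1.29), *Actn2* (-0.12), *Ldb3* (0.074), *Myoz2* (-1.02), *Casq2* (-0.17) and *Trim63* (-1.76). Leaving out 1 array at a time, signs turned for *Tnni1* (from -0.29 to 1.01), *Tnnc1* (from -0.57 to 0.39), *Des* (from -0.36 to 0.15), *Ckm* (from -1.41 to 0.18), *Tpm3* (from -0.83 to 1.07), *Trim63* (from -1.31 to 1.08), *Myh2* (from -4.90 to 0.16), *Myh7* (from -3.11 to 0.059), *Myl2* (from -1.16 to 0.17), *Acta1* (from -2.31 to 0.14), *Myot* (from -3.84 to 0.70), *Xirp2* (from -1.32 to 0.52), *Mb* (from -4.06 to 0.82), *Myl3* (from -0.68 to 1.42), *Tnnt1* (from -0.57 to 1.07), *Mybpc1* (from -0.69 to 1.58), *Actn2* (from -0.16 to 0.64), *Myoz2* (from -0.86 to 1.16), *Casq2* (from -0.25 to 0.62). The cause was not tested. The direction held under every alternative for 26 of 46 genes. Scaling to the 75th percentile moved the median change of all probes from -0.07 to -0.32.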
